A study of Mus musculus with 9 samples.

Results

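In embryoid bodies (EBs) lacking Tnfaip2, 91 protein-coding genes lay at or below 50% of their wild-type level, and they lay at or below 50% as well when the knockout EBs were given palmitoyl-L-carnitine (PC), an acylcarnitine, together with the fatty acid palmitic acid (PA). These genes were chosen by their measured levels. A gene was kept when its mean over the 3 wild-type libraries reached 5 CPM (counts per 1000000 counts of the library) and when the means of both knockout groups were at most 50% of the wild-type mean. Of 10917 protein-coding genes at or above 5 CPM in wild-type EBs, 500 were at or below 50% in the untreated knockout, 883 in the treated knockout and 91 in both, which is 0.834% of the 10917. Because the selection used every comparison with the wild type, values relative to it are given as a description and without a test. The selection did not fix which knockout group was lower, since the same upper limit was put on both. That limit did bound the size of changes between them, and rises with treatment more than falls. A gene near the limit in the untreated knockout could fall far with treatment but rise only a little. It dropped 409 genes that were low in the untreated knockout but above 50% in the treated one. It also dropped 792 genes with the reverse pattern. Shares over all genes, given below, had no such limit.

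EBs are the aggregates that embryonic stem (ES) cells form when they leave self-renewal. All EBs were made from E14 mouse ES cells and were harvested after 3 days of in vitro differentiation. RNA was sequenced from 3 libraries each of wild-type EBs (WT), of Tnfaip2-/- EBs (KO), and of Tnfaip2-/- EBs that received PA and PC, each at 8 μM (KO_PAPC). The knockout was 1 CRISPR-Cas9 clone with a premature stop codon, compared with its parental line, so the mutation and the clone cannot be told apart. A WT group with PA/PC is not analysed here, so an effect of PA/PC that does not depend on the genotype cannot be told apart either.

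ES cell aggregates form an outer layer of primitive endoderm, whose descendants are the parietal and visceral endoderm. Transcription factors of the GATA, SOX and forkhead families specify this lineage, the parietal cells secrete a basement membrane rich in type IV collagen and laminin, and the visceral cells take up nutrients through the receptors megalin and cubilin. A separate program, the integrated stress response, is run by the transcription factor ATF4, which raises genes for amino acid synthesis and uptake and a set of stress regulators when protein synthesis is limited.

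Genes of both programs were among the 91. On the lists of extraembryonic endoderm transcription factors, parietal and visceral endoderm markers, basement membrane components, collagen processing genes and endocytic receptors lay 19 of the 91, and on a list of ATF4 response genes lay 14. The ATF4 list was written after the 91 genes had been seen, so its count is a description only. The other 58 genes were on neither. In the sum over all 91 genes, WT libraries held 0.549% to 0.563% of their counts, KO libraries 0.236% to 0.240% and KO_PAPC libraries 0.144% to 0.146%, and no library of 1 group reached the range of another. The gap between WT and the knockout groups follows from the selection. The direction between KO and KO_PAPC was not fixed by it, but it was not free either. The KO sum was 42.9% of that of WT and KO_PAPC could not pass 50%, so there was less room for a rise than for a fall.

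**Figure D1:**
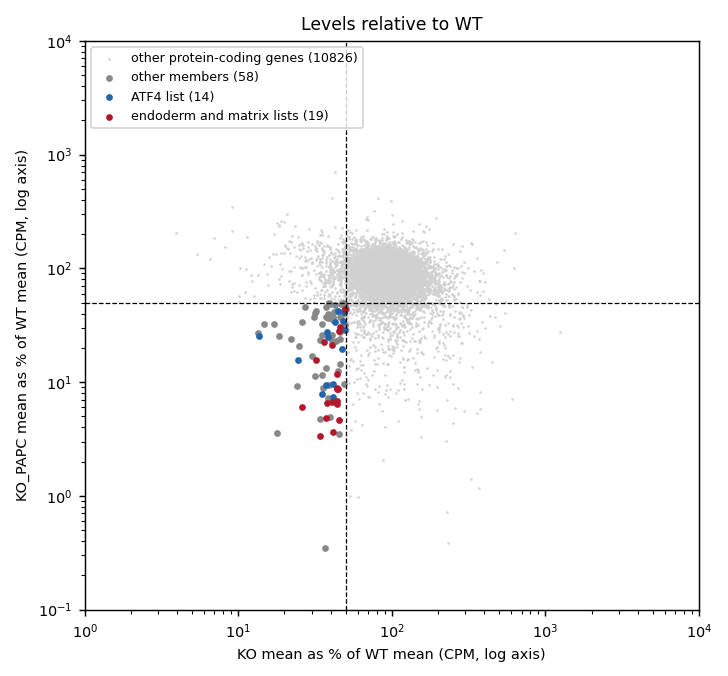
Mean CPM of KO EBs (x axis) and of KO_PAPC EBs (y axis) as a percentage of the WT mean, both on log axes, for 10917 protein-coding genes, each point being 1 gene. Dashed lines mark 50%. The 91 genes fill the lower left corner, and the 19 genes of the endoderm and matrix lists (red) reach further down the y axis, to a median of 8.62% of WT in KO_PAPC, than along the x axis, where their median is 43.9%.

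The 9 libraries were even in depth, with 27362913 to 28914312 counts each, and every pair of replicates of a group differed by more than sampling noise. Tnfaip2 itself was near the floor, with 16, 6 and 10 counts in WT, 5, 6 and 8 in the libraries labelled KO, and 25, 14 and 16 in those labelled KO_PAPC. A premature stop codon need not lower a transcript, so these counts do not check the labels. The 91 genes were all above the filter on low counts in each comparison. Where fold changes are given they are on the log2 scale from edgeR with TMM size factors, while CPM use library totals, and the change of scaling moved the median of all genes by -0.17 in KO_PAPC against KO.

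The first group of genes was that of the endoderm regulators. Gata6, a zinc finger factor that specifies primitive endoderm, stood at 28.9, 30.9 and 29.99 CPM in the WT libraries, 11.6, 13.1 and 12 CPM in KO, and 1.69, 2.27 and 2.05 CPM in KO_PAPC. Sox7, a SOX factor of parietal endoderm, stood at 17.4, 18.3 and 17.9 CPM in WT, 6.27, 6.5 and 7.06 CPM in KO, and 1.08, 0.877 and 0.646 CPM in KO_PAPC. In both genes all KO_PAPC libraries lay below all KO libraries, while WT was highest by the selection. The forkhead gene Foxq1 gave 19.6, 18.5 and 20.1 CPM in WT, 8.30, 8.49 and 9.37 CPM in KO, and 2.05, 1.46 and 1.51 CPM in KO_PAPC. Foxq1 shares 66% of its exonic length with an annotated neighbour, A530084C06Rik, and strand was not used in counting, so its reads cannot be assigned with certainty.

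Between KO_PAPC and KO, where the selection did not fix the direction, these 3 regulators were all lower in KO_PAPC. The log2 fold change was -2.44 ± 0.109 (SE, n = 3 and 3) for Gata6 (edgeR quasi-likelihood test with Benjamini-Hochberg adjustment, adjusted p = 1.92e-21), -2.76 ± 0.153 for Sox7 and -2.21 ± 0.124 for Foxq1. Across all 17167 genes tested in this comparison, 42.2% were called lower and 39.6% higher in KO_PAPC, so a call alone is common and its size is given with it. EBs are mixtures, and in bulk RNA fewer endoderm cells and less RNA per cell cannot be told apart.

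The rest of the list of 18 extraembryonic endoderm transcription factors moved less evenly in KO. Of 14 genes outside the 91, 9 were called lower and 4 higher in KO than in WT, where 37.1% of all genes were called lower and 36.8% higher. In KO_PAPC, 12 of the 14 were called lower and 1 higher than in WT, against 36.4% and 34.2% of all genes. Between KO_PAPC and KO, 12 of the 18 genes of the whole list were lower and 5 higher. Gata4, the partner of Gata6 in this lineage, had means of 32.5, 21 and 2.59 CPM in WT, KO and KO_PAPC, and Sox17 had 11.1, 6.19 and 0.710 CPM. Foxa2, a forkhead factor of endoderm, had 6.87, 4.05 and 0.723 CPM. All 3 were called lower in KO than in WT and lower again in KO_PAPC than in KO, but they stayed above 50% of WT in KO. Hnf4a, a nuclear receptor of visceral endoderm, and Prdm1 did the opposite in KO, at 10.1 against 8.45 CPM and at 29 against 16.8 CPM in WT, and both were called higher. In KO_PAPC they fell to 0.734 and 5.2 CPM. Otx2, which is expressed in epiblast as well, was the gene called higher in KO_PAPC than in WT, at 282 against 218 CPM. With Eomes, Foxa3, Nr2f1 and Nr2f2 it made up the 5 factors that rose from KO to KO_PAPC. Eomes, a T-box factor, had means of 34.7, 22.5 and 29.1 CPM in WT, KO and KO_PAPC. Foxa3 and the nuclear receptors Nr2f1 and Nr2f2 were under 5 CPM in WT, and their log2 fold changes from KO to KO_PAPC were 0.58 ± 0.171, 1.95 ± 0.245 and 1.71 ± 0.253.

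**Figure D2:**
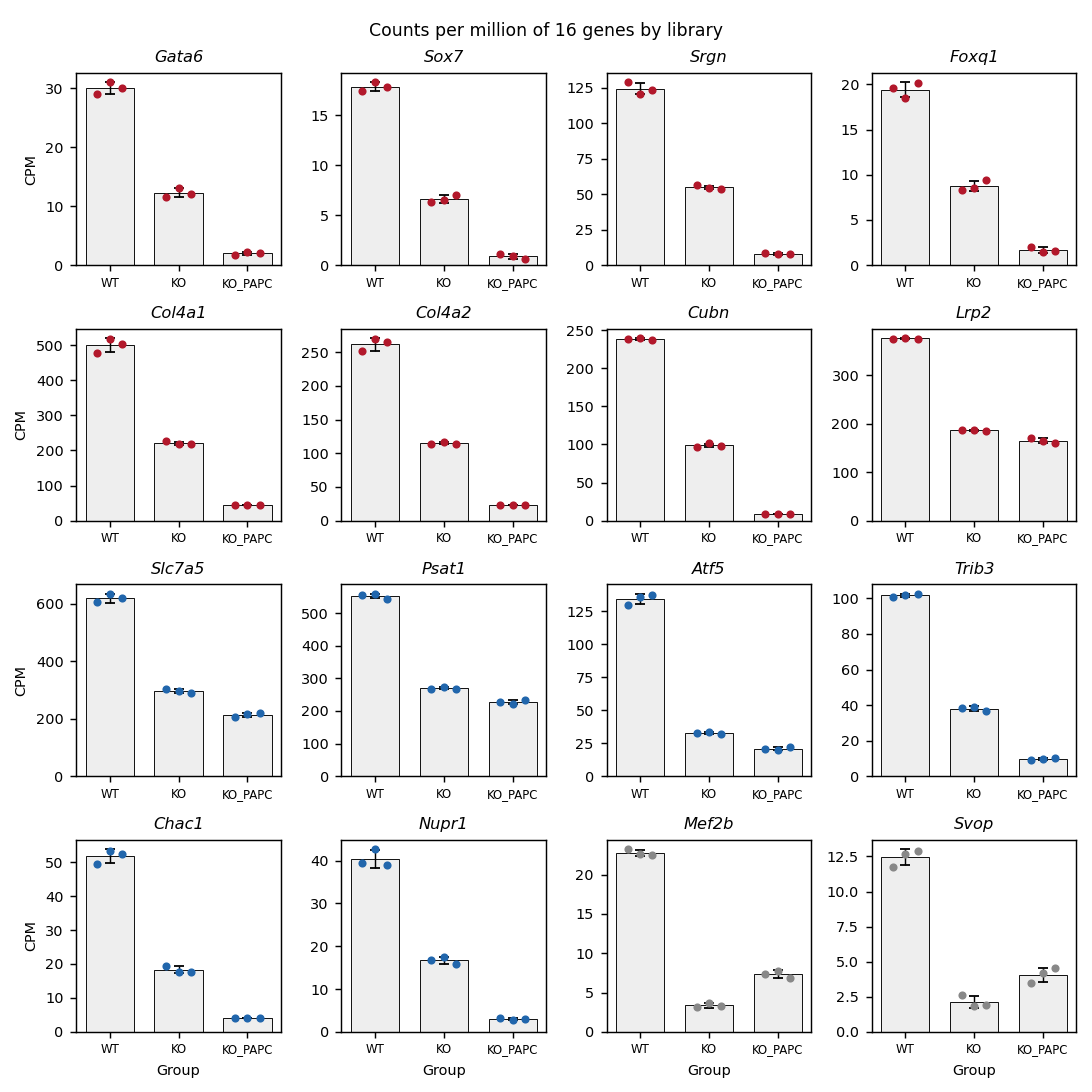
CPM (y axis, linear from 0) of 16 of the 91 genes in the 3 groups (x axis). Points are libraries, bars are means and error bars are SD over 3 libraries, with endoderm and matrix list genes in red, ATF4 list genes in blue and others in grey. Gata6, Col4a1 and Cubn step down from WT to KO to KO_PAPC, Lrp2 and Psat1 change little between KO and KO_PAPC, and Mef2b and Svop rise from KO to KO_PAPC.

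Of the basement membrane genes among the 91, the type IV collagen chains Col4a1 and Col4a2 had the highest levels. Col4a1 (ENSMUSG00000031502, chr8:11198423-11312826 in GRCm38) gave 478, 519 and 503 CPM in WT, 226, 218 and 217 CPM in KO, and 43.3, 44.0 and 44.8 CPM in KO_PAPC. Its partner Col4a2 (ENSMUSG00000031503, chr8:11312805-11449287) lies head to head with it on the other strand, with starts 21 bases apart, and gave 251, 270 and 265 CPM in WT, 114, 117 and 114 CPM in KO, and 22.7, 23.4 and 22.8 CPM in KO_PAPC. The chains, which assemble into one triple helix, stood at 44.1% and 43.9% of WT in KO, and both at 8.8% of WT in KO_PAPC. From KO to KO_PAPC both fell by 2.16 on the log2 scale, with SE of 0.033 and 0.0392 (edgeR adjusted p = 5.79e-36 and 1.14e-33).

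Basement membrane genes outside the 91 went both ways in KO. Of 29 such genes tested, 15 were called lower and 13 higher in KO than in WT. Of 27 tested between KO_PAPC and WT, 19 were called lower and 6 higher. The shares over all genes were 37.1% lower and 36.8% higher in KO, and 36.4% lower and 34.2% higher in KO_PAPC. Sparc, a collagen-binding matrix protein and the highest of the list in WT, had means of 714, 386 and 113 CPM in WT, KO and KO_PAPC. The laminin chains Lamb1, at 239, 127 and 99.4 CPM, and Lama1, at 168, 100 and 13.5 CPM, were called lower in KO and lower again in KO_PAPC. Lamc1, the chain that most laminins share, was at 328, 296 and 175 CPM. Nid2, which links laminin to collagen IV, and Col18a1 were instead called higher in KO than in WT, at 542 against 453 CPM and at 517 against 372 CPM. The laminin chain Lama5, called lower in KO and higher in KO_PAPC, went from 87.6 CPM in KO to 157 CPM in KO_PAPC, above its 145 CPM in WT.

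Collagen processing was represented by Serpinh1 and P3h2. Serpinh1, the chaperone HSP47 that binds procollagen in the endoplasmic reticulum, gave 444, 458 and 450 CPM in WT, 211, 209 and 203 CPM in KO, and 135, 136 and 139 CPM in KO_PAPC. Its log2 fold change from KO to KO_PAPC was -0.43 ± 0.0285 (edgeR adjusted p = 2.20e-16), a smaller step than in the collagen IV chains. P3h2, a prolyl 3-hydroxylase that acts on collagen IV, had means of 5.91, 2.14 and 1.32 CPM, and 28% of its exonic length lies under another annotated gene. It was called lower in KO_PAPC than in KO (-0.52 ± 0.188 on the log2 scale), but not without KO replicate 3 or KO_PAPC replicate 2 (adjusted p = 0.0608 and 0.0823). The other 25 genes of this list at or above 5 CPM in WT were not among the 91. Outside the 91, 20 of 30 tested genes of this list were called lower and 4 higher in KO than in WT, while between KO_PAPC and KO 14 of 33 genes of the whole list were lower and 16 higher. All genes tested were lower in 37.1% and higher in 36.8% in the first comparison, and in 42.2% and 39.6% in the second. The share of the list called lower in the second was thus near that of all genes.

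Cubn, Lrp2 and Amn encode cubilin, megalin and amnionless, the parts of the endocytic receptor of the visceral endoderm. Cubn (ENSMUSG00000026726, chr2:13276338-13491813) gave 238, 240 and 237 CPM in WT, 97.1, 101 and 97.9 CPM in KO, and 8.60, 8.70 and 8.97 CPM in KO_PAPC. Amn, which brings cubilin to the cell surface, gave 24.5, 28.0 and 27.1 CPM in WT, 11.5, 11.6 and 12 CPM in KO, and 3.13, 2.92 and 3.34 CPM in KO_PAPC. Lrp2 gave 376, 377 and 376 CPM in WT, 186, 187 and 185 CPM in KO, and 171, 163 and 161 CPM in KO_PAPC. The 3 genes were thus at 41.4%, 44.2% and 49.5% of WT in KO, in the order Cubn, Amn and Lrp2, and parted in KO_PAPC, at 3.7%, 11.8% and 43.9%. From KO to KO_PAPC the log2 fold change was -3.33 ± 0.049 for Cubn (edgeR adjusted p = 1.66e-36) and -1.74 ± 0.0944 for Amn. For Lrp2 it was -0.00 ± 0.0288 (adjusted p = 0.889), and this gene was called lower when library totals replaced TMM. Vldlr, a related receptor, was among the genes just outside the limit, at 10.0% of WT in KO and 50.3% in KO_PAPC.

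The remaining endoderm markers among the 91 were Srgn, Pth1r, Pdgfra, Aqp8, Slc39a8, Ihh and Habp2. Srgn, the intracellular proteoglycan serglycin, gave 129, 121 and 124 CPM in WT, 56.1, 54.6 and 53.4 CPM in KO, and 8.64, 7.56 and 7.50 CPM in KO_PAPC. Pth1r, the receptor for parathyroid hormone-related protein that parietal endoderm carries, gave 34.5, 38.1 and 39.4 CPM in WT, 14.2, 16.5 and 15.0 CPM in KO, and 7.20, 8.55 and 7.86 CPM in KO_PAPC. In each gene the KO and KO_PAPC libraries lay apart, WT being higher by the selection. In Srgn the step from KO to KO_PAPC was the larger, at -2.62 ± 0.0577 on the log2 scale against -0.79 ± 0.078 in Pth1r. Pdgfra, a receptor tyrosine kinase of primitive endoderm, gave 35.8, 34.6 and 35.8 CPM in WT, 13.8, 12.2 and 13.9 CPM in KO, and 2.63, 2.30 and 2.08 CPM in KO_PAPC. The water channel Aqp8 gave 33.1, 30.4 and 32.1 CPM in WT, 10.3, 10.7 and 11.8 CPM in KO, and 1.08, 0.767 and 1.36 CPM in KO_PAPC, which is 3.4% of WT. Slc39a8 (a zinc and manganese importer), Ihh (the ligand Indian hedgehog) and Habp2 (a hyaluronan-binding protease) had WT means of 26.9, 9.38 and 5.6 CPM and were at 28.0%, 15.5% and 6.9% of WT in KO_PAPC.

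As a group, the 19 endoderm and matrix genes were lower in KO_PAPC than in KO in 18 cases, higher in 0 and not called in 1, which was Lrp2. Their median log2 fold change was -2.16, against -0.02 over all genes tested, and in all 19 the 3 KO_PAPC libraries lay below the 3 KO libraries. In all genes tested, 50.7% showed such a separation in that direction, and 42.2% were called lower. With library totals all 19 were called lower, and DESeq2 called 17.

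The list of 44 parietal and visceral endoderm markers held genes that went the other way in KO. Outside the 10 selected genes, 16 of 30 tested were called lower and 11 higher in KO than in WT, while 26 of 29 were lower and 1 higher in KO_PAPC than in WT. The shares over all genes were 37.1% lower and 36.8% higher in KO, and 36.4% lower and 34.2% higher in KO_PAPC. Apoe, the apolipoprotein with the highest WT level of the list, had means of 1067, 881 and 695 CPM in WT, KO and KO_PAPC, and the adaptor Dab2 had 116, 86.4 and 13.4 CPM. Podxl, a sialomucin of the apical surface, had 149, 116 and 104 CPM. Genes for secreted proteins of the visceral endoderm were among those higher in KO. These were named after their values were seen. Apob had 14.6, 29.8 and 3.32 CPM, the retinol carrier Rbp4 had 13.9, 22.0 and 2.52 CPM, the thyroid hormone carrier Ttr had 9.24, 13.1 and 2.11 CPM, and alpha-fetoprotein, Afp, had 4.75, 11 and 1.14 CPM. None of the 11 could be among the 91, which needed a lower level in KO. Summed over the 44 markers, the level was 2643 to 2740 CPM in WT, 1822 to 1901 CPM in KO and 1139 to 1192 CPM in KO_PAPC. Apoc2 was at 0 in every library. Alb and Fabp1 were at 0 in the KO_PAPC libraries, but their means were under 1 CPM in WT and KO as well.

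Markers of other cell states moved with the groups as well, and their part in the results was not tested. The 22 naive pluripotency genes summed to 3893 to 3936 CPM in WT, 5904 to 5929 CPM in KO and 3397 to 3426 CPM in KO_PAPC. The 16 formative and primed epiblast genes summed to 1749 to 1754 CPM in WT, 1300 to 1341 CPM in KO and 3116 to 3190 CPM in KO_PAPC, and none of these 38 genes was at 0 in any group. Neither list had a gene among the 91. The 22 trophoblast genes, 2 of them at 0 in each group, summed to 122 to 126 CPM in WT, 465 to 469 CPM in KO and 65.5 to 70.1 CPM in KO_PAPC.

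**Figure D3:**
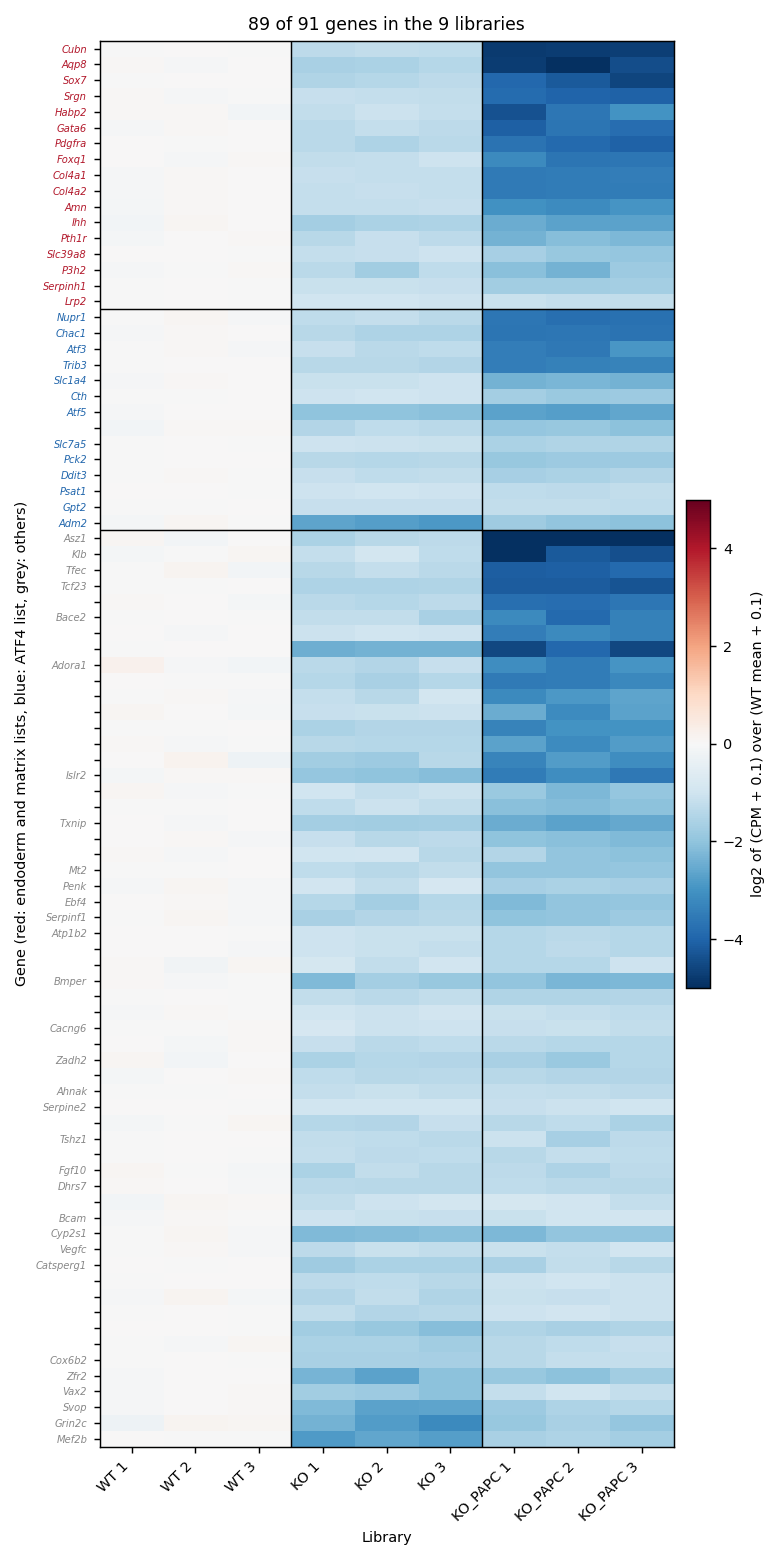
Heat map of 89 of the 91 genes (rows, with the names of those described in the text) in the 9 libraries (columns), coloured by the log2 of (CPM + 0.1) over (WT mean + 0.1), with values below -5 drawn as -5. Rows are ordered within the endoderm and matrix lists (red names), the ATF4 list (blue names) and the others (grey names) by their fold change between KO_PAPC and KO. WT columns are near 0, KO columns are mostly light (Mef2b and Adm2 being among the darker rows), and KO_PAPC columns range from the darkest rows, such as Cubn and Asz1, to rows paler than in KO, such as Mef2b and Grin2c.

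The second program was that of amino acid supply and stress regulators. Slc7a5, the large neutral amino acid transporter LAT1 and the highest of the 91 genes in WT by CPM, gave 604, 635 and 618 CPM in WT, 304, 296 and 289 CPM in KO, and 206, 218 and 219 CPM in KO_PAPC. Psat1, the phosphoserine aminotransferase of serine synthesis, gave 556, 557 and 544 CPM in WT, 268, 275 and 268 CPM in KO, and 227, 222 and 233 CPM in KO_PAPC. Between KO and KO_PAPC the log2 fold changes of the 2 genes were -0.30 ± 0.0284 and -0.08 ± 0.0269 (edgeR adjusted p = 4.87e-12 and 0.0056). The larger step from WT to KO was required by the selection. The call for Psat1 was lost when genes with low counts were kept (adjusted p = 0.0671) and without KO_PAPC replicate 2 (adjusted p = 0.0777), while with library totals its log2 fold change was -0.25 (adjusted p = 1.68e-10). Atf5, a leucine zipper factor that ATF4 induces, gave 130, 136 and 138 CPM in WT, 32.9, 33.5 and 31.9 CPM in KO, and 20.8, 19.6 and 22.1 CPM in KO_PAPC, and at 24.3% of WT was among the 5 lowest in KO of genes above 10 CPM in WT. Pck2, the mitochondrial form of phosphoenolpyruvate carboxykinase, gave 110, 112 and 113 CPM in WT, 43.1, 41.6 and 42.8 CPM in KO, and 30.1, 31.7 and 31.3 CPM in KO_PAPC.

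Trib3, Chac1, Nupr1, Atf3, Slc1a4 and Cth fell by more between KO and KO_PAPC, and Ddit3 by less (-0.18 ± 0.063 on the log2 scale), than Slc7a5. They were named after their values had been seen, most of them for the promoter sequences given further on. Trib3, a pseudokinase that binds ATF4, gave 101, 102 and 103 CPM in WT, 38.5, 39.2 and 36.6 CPM in KO, and 9.11, 9.72 and 10.1 CPM in KO_PAPC. Chac1, which breaks down glutathione, gave 49.5, 53.4 and 52.4 CPM in WT, 19.5, 17.8 and 17.6 CPM in KO, and 4.07, 4.17 and 3.95 CPM in KO_PAPC. The KO and KO_PAPC libraries were apart in both, and the log2 fold changes from KO to KO_PAPC were -1.82 ± 0.0589 and -2.01 ± 0.0824. Nupr1, a small transcription cofactor, was at 40.4, 16.7 and 3.00 CPM in the means of WT, KO and KO_PAPC, and Atf3, a leucine zipper factor of acute stress, at 15.5, 6.47 and 1.5 CPM. Slc1a4, a transporter of serine and other neutral amino acids, was at 74.5, 35.2 and 14.6 CPM. Cth, which makes cysteine from cystathionine, was at 86.5, 42.6 and 25.0 CPM, and Ddit3, the factor CHOP, at 43.5, 18.7 and 14.7 CPM. Without KO_PAPC replicate 1 Ddit3 was no longer called between the knockout groups (adjusted p = 0.0948). Gpt2, an alanine aminotransferase, was not called between the knockout groups, at 43.4 ± 0.585 CPM in KO and 40.5 ± 0.673 CPM in KO_PAPC (SD, n = 3). Adm2, the peptide adrenomedullin 2, was the one of the 14 called higher in KO_PAPC, from 1.06 ± 0.0936 to 2.00 ± 0.208 CPM, and remained at 25.6% of WT.

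Of the 14 ATF4 list genes among the 91, 12 were called lower in KO_PAPC than in KO, 1 higher and 1 not called, with a median log2 fold change of -0.48. In this comparison 42.2% of all genes tested were called lower and 39.6% higher. The median KO level of the 14 genes was 41.5% of WT, so the limit of 50% left them little room to rise too. The median of the 19 endoderm and matrix genes was more negative, and no test was made between the groups because their members were chosen with the values known. Outside the 14 selected genes, 35 of 41 tested genes of the ATF4 list were called lower and 2 higher in KO than in WT, and 36 of 40 lower and 3 higher in KO_PAPC than in WT. The shares over all genes were 37.1% lower and 36.8% higher in KO, and 36.4% lower and 34.2% higher in KO_PAPC. Atf4 itself had means of 458, 303 and 55.4 CPM in WT, KO and KO_PAPC, and Asns, asparagine synthetase, had 588, 476 and 96.1 CPM, so that both stayed above 50% of WT in KO. Between KO_PAPC and KO, 34 of 54 genes of the whole list were lower and 16 higher. Ddit4 and Stc2, named after their values were seen, were lower in KO than in KO_PAPC, at 581.9, 165 and 984 CPM and at 80.9, 8.16 and 46.2 CPM in WT, KO and KO_PAPC.

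ATF4 binds as a dimer with C/EBP factors to a composite element, searched for here as TGATGNAA or, on the other strand, TTNCATCA. Promoters from 250 bases before to 50 after the RefSeq start (GRCm38.p6) were at hand for 70 of the 91 genes. Of 12 ATF4 list genes among them, 6 held the motif, and of all 8715 protein-coding genes with a promoter and at least 5 CPM in WT, 224 held it (2.57%). The list was one of ATF4 response genes, so a share above that of all genes may come with the list. It is a description only and no result about their levels. The stretches of these 6 genes, which were picked because they held the motif, are shown 5′ to 3′ on the strand of the gene, the match being in capitals.
Atf3 (chr1:191183390-191183489, minus strand): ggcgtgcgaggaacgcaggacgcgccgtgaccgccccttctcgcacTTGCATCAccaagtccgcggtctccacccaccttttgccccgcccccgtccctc
Chac1 (chr2:119351003-119351102, plus strand): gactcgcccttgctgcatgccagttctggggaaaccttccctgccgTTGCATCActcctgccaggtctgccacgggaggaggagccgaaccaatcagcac
Pck2 (chr14:55540117-55540216, plus strand): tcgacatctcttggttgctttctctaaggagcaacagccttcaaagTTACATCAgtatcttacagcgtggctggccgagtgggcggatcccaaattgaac
Slc1a4 (chr11:20332710-20332763, minus strand): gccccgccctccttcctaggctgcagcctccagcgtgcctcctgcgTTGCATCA
Nupr1 (chr7:126625562-126625591, minus strand): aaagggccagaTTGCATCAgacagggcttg
Trib3 (chr2:152344028-152344057, minus strand): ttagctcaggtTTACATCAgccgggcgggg

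All 6 matches read TTNCATCA on the strand of the gene. Relative to the RefSeq start the match began at -193 in Chac1, -110 in Atf3 and in Nupr1, -103 in Pck2, -4 in Slc1a4, and 14 bases after the start in Trib3. In the GENCODE annotation the Chac1 and Pck2 stretches lay upstream of the gene, the Atf3 stretch lay in an intron of a longer transcript, and the Nupr1 stretch lay in an exon of a longer transcript. The Slc1a4 match spanned the annotated start of the gene, and the Trib3 match, although inside the RefSeq transcript, lay before the GENCODE start. The motif was not particular to the genes low in both knockout groups, since 10 of 30 other ATF4 list genes with a promoter held it too (33.3%), among them Asns, Aars and Jdp2. Outside the ATF4 list the 91 held 3 more matches, in Srgn, Serpinf1 and Zfr2. A match is a run of letters and not a binding site.

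**Figure D4:**
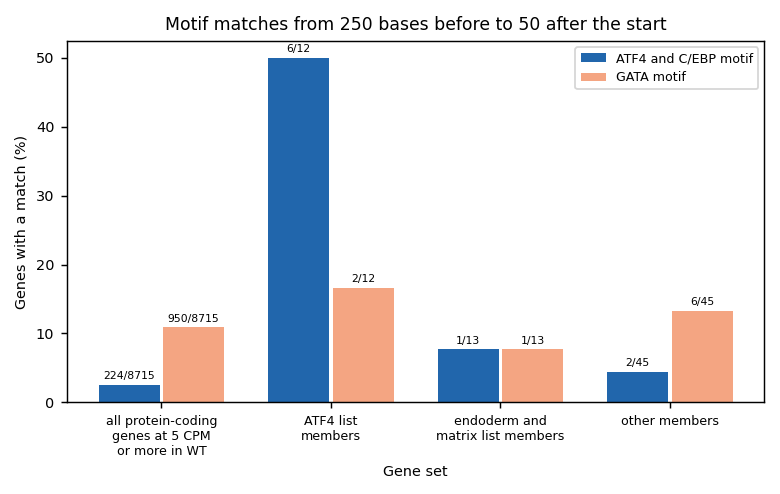
Share of genes (y axis, percent) with a match to the ATF4 and C/EBP motif (blue) or to the GATA motif (orange) between 250 bases before and 50 after a RefSeq start, by gene set (x axis), with the number of genes matched and searched above each bar. The blue bar of the ATF4 list genes, 6 of 12, stands above that of all genes, 224 of 8715, while the orange bars run from 7.69% to 16.7%. The list was one of ATF4 response genes, so the gap between these blue bars is a description only.

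The GATA motif, searched for as AGATAA or TGATAA on both strands, was held by 9 of the 70 genes with a promoter among the 91 (12.9%) and by 10.9% of all 8715 genes. Of the 13 endoderm and matrix genes with a promoter in the table, 1 held it, and a window of this size says nothing of sites further away. The SOX motif ACAATG was in 3 of 70 (4.29%) against 8.43% of all genes, and the TATA box TATAAA in 10 of 70 (14.3%) against 7.93%.

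Outside both programs, 58 genes showed less in common. From KO to KO_PAPC 26 of them were called lower, 16 higher and 16 not called, with a median log2 fold change of -0.08. The share called lower, 44.8%, was near the 42.2% of all genes tested, and the share called higher, 27.6%, was under their 39.6%. The upper limit on KO_PAPC capped rises in the 58 genes, so their smaller share called higher may follow from the selection. In 17 of the 58 the KO and KO_PAPC libraries overlapped, while 82.1% of all genes tested had no overlap. Txnip, an inhibitor of thioredoxin that limits glucose uptake, was the highest of them and gave 194, 185 and 191 CPM in WT, 58.7, 56.2 and 58.0 CPM in KO, and 33.5, 29.9 and 32.4 CPM in KO_PAPC. Mt2, a metallothionein, gave 125, 127 and 131 CPM in WT, 52.3, 49.3 and 54.2 CPM in KO, and 32.8, 32.5 and 32.9 CPM in KO_PAPC. Most of the exonic length of Mt2 (73%) also lies under another annotated gene, so its reads cannot be assigned with certainty. Per kilobase of exon, Mt2 was nonetheless the highest of the 91 in WT at 217 RPKM (CPM divided by the exonic length in kilobases), followed by Serpinh1 at 184, Slc7a5 at 167 and Psat1 at 130 RPKM.

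Several of the 58 fell with PA/PC as steeply as the endoderm genes. Klb, the coreceptor beta-Klotho for endocrine FGFs, gave 10.5, 11.1 and 11.9 CPM in WT, 4.8, 5.82 and 4.6 CPM in KO, and 0.216, 0.512 and 0.431 CPM in KO_PAPC, a log2 fold change of -3.54 ± 0.207 between the knockout groups (edgeR adjusted p = 7.05e-18). The transcription factors Tcf23 and Tfec had WT means of 13.3 and 7.84 CPM, KO means of 4.54 and 3.10 CPM, and KO_PAPC means of 0.627 and 0.385 CPM. Asz1, a germline gene of the piRNA pathway, had 210, 176 and 192 counts in WT, 63, 73 and 79 in KO, and 2, 0 and 0 in KO_PAPC. With 2 counts in all, its KO level was 104 times that of KO_PAPC with an exact 95% interval from 28.5 to 867, which covers counting error only. Islr2, a leucine-rich repeat protein of neuronal surfaces, was at 24.2% of WT in KO and 9.2% in KO_PAPC.

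Another set was higher with PA/PC than in KO while staying at or below 50% of WT. Mef2b, a MADS box transcription factor, gave 23.2, 22.6 and 22.5 CPM in WT, 3.12, 3.68 and 3.29 CPM in KO, and 7.42, 7.78 and 6.89 CPM in KO_PAPC. Svop, a synaptic vesicle protein, gave 11.8, 12.7 and 12.9 CPM in WT, 2.63, 1.86 and 1.94 CPM in KO, and 3.49, 4.17 and 4.52 CPM in KO_PAPC. In both, KO was the lowest of the 3 groups and no libraries overlapped. The log2 fold changes from KO to KO_PAPC were 1.30 ± 0.105 for Mef2b (edgeR adjusted p = 7.55e-14) and 1.09 ± 0.144 for Svop. Grin2c, an NMDA receptor subunit, rose by 1.17 ± 0.225, Vax2, a homeodomain factor of the eye, by 0.91 ± 0.0995, and Zfr2 by 0.63 ± 0.201 on that scale. Cox6b2, the testis form of a cytochrome c oxidase subunit, rose from 31.4 ± 0.511 to 40.8 ± 3.29 CPM, against 97.6 ± 1.25 CPM in WT (SD, n = 3). Cyp2s1, a cytochrome P450, was among the 5 lowest in KO of genes above 10 CPM in WT, at 22.1% of WT, and at 23.7% in KO_PAPC, with libraries that overlapped between the knockout groups and a call of higher (0.27 ± 0.112 on the log2 scale, edgeR adjusted p = 0.0284). That call was lost without KO replicate 1 or 2 (adjusted p = 0.0813 and 0.0627) and without KO_PAPC replicate 2 or 3 (adjusted p = 0.0957 and 0.0929).

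**Figure D5:**
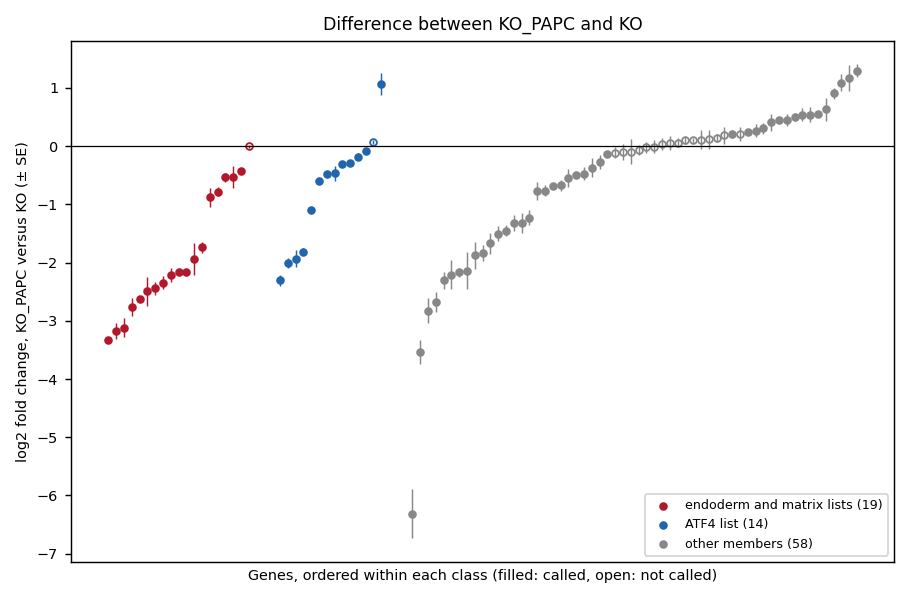
Log2 fold change between KO_PAPC and KO (y axis, error bars SE from edgeR, 3 libraries a group) of the 91 genes, ordered within the endoderm and matrix lists (red), the ATF4 list (blue) and the others (grey). Filled points were called at an adjusted p under 0.05. All red points lie at or below 0, the blue ones with the exception of Adm2 and Gpt2 lie below 0, and the grey ones run from -6.31 to 1.30.

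Over the 91 genes, 56 were called lower in KO_PAPC than in KO (61.5%), 17 higher (18.7%) and 18 in neither direction. Of these, 34 were lower by at least 2-fold (all genes tested, 18.4%) and 21 by at least 4-fold (all genes, 9.01%), while 4 were higher by at least 2-fold (all genes, 9.40%). The selection capped rises, since its upper limit held for KO_PAPC too. The median KO level of the 91 genes was 39.8% of WT, so most had no room for a 2-fold rise. Their shares of higher genes are therefore not comparable with those over all genes. The limit on KO_PAPC also favoured genes that fell there, so their shares of lower genes are not comparable either. With library totals in place of TMM the split was 60 lower and 12 higher. The sign differed between the scalings in 9 genes, among them Gpt2, Ahnak and Serpine2, and all 9 were uncalled with TMM.

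By role, 17 of the 91 were transcription factors or cofactors, of which 14 were called lower, 2 higher and 1 in neither direction in KO_PAPC against KO, with a median of 9.68% of WT in KO_PAPC. The roles were assigned after the genes were known. In all 17167 genes tested, 42.2% were called lower and 39.6% higher in this comparison. Some of the counts by role, such as the 5 of 10 transporters below, lie near that share. The limit on KO_PAPC favoured falls over rises in each role too. Of 8 matrix components and collagen processing genes 7 were lower, with the intracellular proteoglycan gene Srgn counted among them. Of 9 genes of amino acid and carbon metabolism 7 were lower and 1 higher. Of 10 ligands, signalling receptors and their modulators, 6 were lower and 2 higher. Here Pdgfra stood beside Vegfc, a ligand of lymphatic growth at 15.0, 6.42 and 7.06 CPM in WT, KO and KO_PAPC, and beside Fgf10, an FGF ligand at 6.76, 2.5 and 2.54 CPM, of which Vegfc was called higher with TMM but not with library totals (adjusted p = 0.00372 and 0.177) and Fgf10 in neither direction. Of 10 channels, pumps and other transporters, 5 were lower and 4 higher, and of 8 oxidoreductases and redox or metal binding genes, 2 were lower and 4 higher.

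Of the 35 lists drawn up for this tissue and treatment, 21 had no gene among the 91, 9 had 1 or 2, and 5 had 3 or more. The 5 were the parietal and visceral endoderm markers (10 of 27 genes at or above 5 CPM in WT), the extraembryonic endoderm transcription factors (4 of 12), the endocytic receptors (3 of 22), the basement membrane components (3 of 23) and the receptor tyrosine kinase genes (3 of 36), which share several genes. Glycolysis and the hypoxia response had 0 of 33, sterol synthesis 0 of 27, fatty acid and lipid metabolism 0 of 48, Wnt signalling 0 of 28, lysosomal genes 0 of 43 and endoplasmic reticulum chaperones 0 of 28. On none of the lists, the ATF4 list included, were 49 of the 91 genes.

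The 91 genes were spread over the genome. Chromosome 7 held 11, chromosome 11 held 10 and chromosome 8 held 9, and chromosome 17 held none of its 523 protein-coding genes at or above 5 CPM. Within 500 kb of each other lay 5 pairs, of which Col4a1 with Col4a2 and Tshz1 with Zadh2 were head to head neighbours with no other such gene between them. Starts of Tshz1 and Zadh2 lay 357 bases apart, and the genes had WT means of 5.69 and 12.5 CPM, KO means of 2.28 and 4.35 CPM, and KO_PAPC means of 2.20 and 4.02 CPM. In contrast to the collagen pair, neither was called between KO_PAPC and KO. The median exonic length of the 91 genes was 3839 bases, against 4656 bases over the 10917.

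At the edges of the selection the genes inside and outside were close. Just inside the limit of 50% lay Cacng6 at 49.99%, Penk at 49.7% and Serpine2 at 49.6% of WT in their higher knockout group. Just outside lay Tap1 at 50.2%, Igdcc4 and Vldlr, both at 50.3%. At the WT minimum, Bace2 at 5.11, Adora1 at 5.13 and Bmper at 5.19 CPM were kept, and Pak6 at 4.86, Bmp6 at 4.78 and Gkn1 at 4.51 CPM were not.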

How the data were processed

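The file held whole-number counts per Ensembl gene. These deposited counts are raw: per the labels, unstranded single-end libraries were read over 51 cycles, aligned to GRCm38 with STAR 2.7.2b and counted by the authors with featureCounts 1.6.5, keeping uniquely mapped reads. Their methods describe another pipeline, with TopHat2, for an earlier WT analysis, so how the WT counts were made is not certain. Each group had 3 biological replicates.

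Symbols and positions came from GENCODE M21 (241 of 55471 IDs unmatched). Contrasts were fitted on their own 6 libraries in edgeR 4.0.16 by its quasi-likelihood test (R 4.3.3, TMM, filterByExpr, adjusted p under 0.05 over all genes). CPM used library totals of 27362913 to 28914312. In simulated KO_PAPC versus KO data over 55471 genes, edgeR recovered 97.9% of 95 genes changed 2-fold and 100% of 105 changed 4-fold, with 13 false calls. The simulation changed few genes, none with low counts, and used a fixed noise level. In these data most genes were called, so it checks the code and gives no error rate for them. Shared sequence was checked as 51-base transcript words. DESeq2 1.42.0 was an alternative. Replicate numbers did not pair the libraries.

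Genes were named by a rule: the highest in WT, the highest of each list with 3 or more members, the lowest ratios, the largest changes between the knockout groups, those nearest the limits, and the endoderm regulator and basement membrane lists. The 91 genes and the lists were chosen with earlier results of these data known. For 2 of the 91 genes the individual values are not reported here.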

Additional observations from a re-analysis of the deposited data

How the results depend on the processing

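The number of genes that met the rule was 40 with a limit of 40% of WT and 355 with a limit of 66.7%. It was 82 with TMM-scaled CPM (81 of them among the 91), 67 when every library was compared, 136 and 65 with a WT minimum of 2 and 10 CPM, and 87 to 95 when 1 library was left out. Genes called lower in KO_PAPC than in KO were 32 at a tested minimum fold change of 2, and genes called higher were then 1. With members chosen by TMM-scaled CPM, 11 were called higher in place of 17. Leaving out 1 library gave 52 to 55 lower and 15 to 19 higher. DESeq2 called 51 lower and 12 higher. On the 5 endoderm and matrix lists together, with the 19 genes selected on these same comparisons counted in, 90 genes were called lower in KO than in WT (87 to 91 without 1 library) and 106 lower in KO_PAPC than in WT (103 to 108 without 1 library). The 5 lists held 155 genes, and over all genes 37.1% and 36.4% were called lower in these comparisons. Genes of the lists were also called higher in KO than in WT, among them 13 of 32 tested basement membrane genes and 11 of 40 endoderm markers. Replicate numbers did not pair the libraries, as correlations of same-numbered deviations ran from -0.078 to 0.134. With the replicate block the counts were 56 lower and 17 higher, 89 and 107, so it changed no count by more than 1.5 times. Of 73 genes called between KO_PAPC and KO, 61 kept their call under all 12 alternatives in which 1 choice or library was changed, 12 lost it in at least 1, and 0 reversed. The 12 were Psat1, Bcam, Atp1b2, Ddit3, Dhrs7, Cyp2s1, Vegfc, Serpinf1, Catsperg1, Ebf4, Zfr2 and P3h2. Of these, 8 lost it without 1 library: beside Psat1, Ddit3, Cyp2s1 and P3h2 these were Atp1b2, Serpinf1, Catsperg1 and Ebf4, at adjusted p between 0.0687 and 0.155. The cause of these changes was not tested. Depth limits the lowest genes most, such as Asz1 with 2 counts in the KO_PAPC libraries.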
